A study of Mus musculus with 2 samples.

Results

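The transcripts described here belong to 10 genes that protect macrophages from oxidants and metals. They are the superoxide dismutase genes Sod1 and Sod2, the peroxide-removing enzyme genes Cat, Gpx1 and Prdx1, the heme oxygenase gene Hmox1, the thioredoxin and glutathione genes Txnrd1 and Gclm, and the metallothionein genes Mt1 and Mt2. They were chosen by name, and all probe sets annotated to them were taken. Of the 12654 probe sets on the array, 12 carried such an annotation, and 10 of these named a single gene and covered 9 of the 10 genes. The remaining 2 were annotated to Prdx1 together with Gm21399, a gene listed as a pseudogene, so their signals cannot be assigned to Prdx1 and are given apart from the rest.

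Macrophages make superoxide, hydrogen peroxide and nitric oxide when bacterial lipopolysaccharide (LPS) reaches Toll-like receptor 4, and they limit the damage to themselves with enzymes that act in sequence. Superoxide dismutases turn superoxide into hydrogen peroxide. Catalase splits hydrogen peroxide, while glutathione peroxidases and peroxiredoxins reduce it with electrons from glutathione and thioredoxin. Many of these genes are targets of the transcription factor NRF2, while metallothioneins are small cysteine-rich proteins that bind zinc and copper and are driven by the metal-sensing factor MTF1.

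The knockout sample was RNA of peritoneal macrophages from Pac1-/- mice, which lack the nuclear MAP kinase phosphatase PAC1 encoded by Dusp2, and the wild-type sample was RNA of macrophages from age-matched Pac1+/+ littermates. Both sets of cells were drawn into the peritoneum with thioglycollate, a sterile irritant, for 4 days, purified by adherence for 2 hours and given 100 ng/ml LPS for 6 hours, a time the submitters chose for inflammatory transcripts. Each genotype was measured on 1 Affymetrix array, and the ages of the mice, the number behind each array and the way the Pac1 allele was made are details not given in the sources used here. No unstimulated sample entered the comparison, and values are levels after LPS rather than responses to it.

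With 1 array per genotype there is no replicate check and no test between the genotypes, and no value below has a standard error. Signals are MAS5 intensities in arbitrary units, which can be compared between arrays for a probe set but not between probe sets. A floor at the median of all signals, 36.4, stood in for a detection call, and log2 ratios are knockout over wild type. Dusp2 itself read 76.8 in knockout cells and 333 in wild-type cells, and whether its probes lie in the deleted part was not examined. The labels give 92 to 95% Mac-1-positive cells for both genotypes. All 9 macrophage markers examined, among them Itgam, the gene of the Mac-1 antigen used to check purity, were above the floor on both arrays. The spread that 2 arrays show is given by the 6838 probe sets above the floor on at least 1 of them. Their median absolute log2 ratio was 0.28 for probe sets whose brighter signal was 1 to 3 times the floor, 0.23 at 3 to 10 times and 0.15 at 10 times or more. For the 520 genes with several probe sets measured above the floor on both arrays, the 2 brightest gave log2 ratios that differed by a median of 0.30.

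After LPS, most of the antioxidant and metallothionein signals were slightly higher on the knockout array, with Sod1 and Hmox1 on the other side of equality under another scaling of the arrays, and catalase and glutathione peroxidase 1 were the furthest apart. Catalase was at least 2.12-fold higher by 1 probe set and 1.47-fold higher by the other, and Gpx1 was 1.43-fold higher. Mt1 and Mt2 were 1.24-fold and 1.27-fold higher. Sod1, Sod2, Hmox1 and Txnrd1 differed between the genotypes by 1.10-fold or less. Of the 10 probe sets, 9 were above the floor on at least 1 array, and 1 of these 9 (Cat) was 2-fold or more higher, where 1.18% of all probe sets above the floor were 2-fold or more higher and 2.3% were 2-fold or more apart in either direction. That probe set passed the floor on the knockout array alone, so it could only come out higher there. None of the 9 was 2-fold lower (0), against 1.11% of all probe sets. At 1.5-fold the counts were 1 higher and 0 lower, where 6.55% and 5.91% of all probe sets were. Of the 5 that reached 10 times the floor, 0 were 1.5-fold apart, against 4.31% of all probe sets that bright. In RNA of many cells, a change in the share of a cell type and a change in RNA per cell cannot be told apart.

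**Figure D1:**
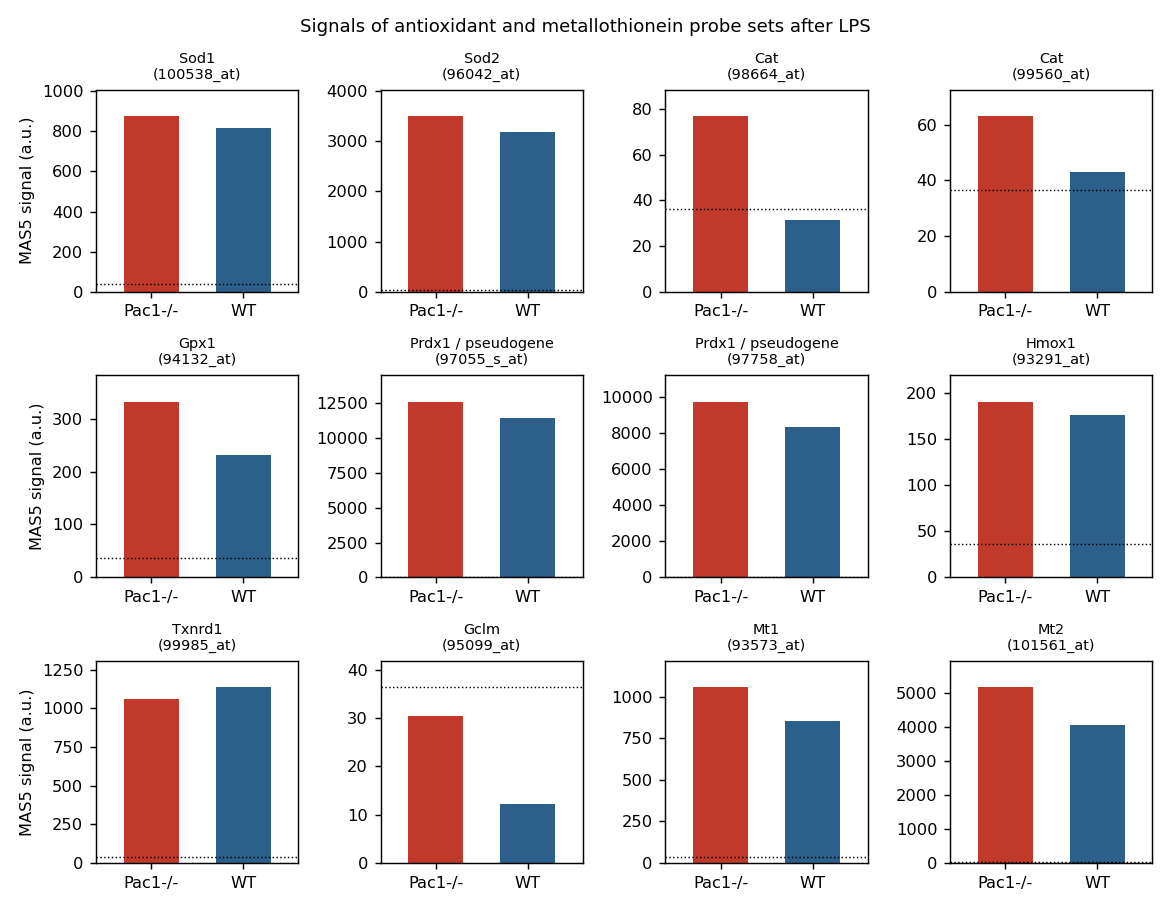
MAS5 signals in arbitrary units on the Pac1-/- array (red) and the wild-type array (blue), 1 bar per array, for each of the 12 probe sets, with the floor of 36.4 as a dotted line. Each panel has its own axis from 0. Txnrd1 is the only panel with a lower bar for Pac1-/-, both Gclm bars are under the floor, and for the left Cat panel the wild-type bar of 31.3 is under it.

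The superoxide dismutase transcripts were close to equal on the arrays. Sod1, the copper-zinc enzyme of the cytosol, was at 877 in knockout cells and 817 in wild-type cells (log2 ratio 0.10). Sod2, the manganese enzyme of mitochondria and a known NF-kB target that LPS induces in macrophages, was at 3505 in knockout cells and 3190 in wild-type cells (0.14). Both differences were among the smaller ones: 65.2% of the 1626 probe sets with a brighter signal of at least 10 times the floor were as far apart as Sod1, and 55.2% as far apart as Sod2. Scaling the arrays to equal medians instead of equal trimmed means gave a median log2 ratio over all probe sets of −0.09, in place of 0.02, and put Sod1 at −0.02 and Sod2 at 0.02. That scaling lowers the ratio of any probe set measured on both arrays by 0.12, so genes and list medians given below between 0 and 0.12 fall under 0 with it. Counts of list genes above 0 can fall with them. The wider list of superoxide dismutases and copper delivery held 5 genes, all above the floor, of which 4 had ratios above 0. Its lowest was Sod3, the extracellular dismutase, at 65.0 in knockout cells and 67.4 in wild-type cells (−0.05). Its highest was Ccs, the copper chaperone of SOD1, at 59.6 in knockout cells and 27.3 in wild-type cells, at least 1.64-fold higher by its brightest probe set. Its direction rests on that choice: under scaling to equal medians or loess another probe set was the brightest, and the log2 ratio was −0.052 or −0.0096. Of its 3 other probe sets, 1 read 10.3 in knockout cells and 53.8 in wild-type cells.

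Catalase, the heme enzyme of peroxisomes that splits hydrogen peroxide, had 2 probe sets, both dim. Probe set 98664_at was at 77.0 in knockout cells and 31.3 in wild-type cells, a wild-type signal under the floor, which gives a ratio of at least 2.12-fold. Probe set 99560_at was at 63.1 in knockout cells and 42.9 in wild-type cells, a 1.47-fold difference with both signals above the floor (log2 ratio 0.56). Both read higher on the knockout array. For genes with several probe sets measured on both arrays, the gap between log2 ratios had a median of 0.30 and a 95th percentile of 1.01. The gap between the Cat probe sets lay between these values. Cat is not among those genes, since 98664_at passed the floor on 1 array alone. As large a difference in either direction was shown by 1.71% of the 6838 probe sets for the first and by 13.9% for the second. At 1 to 3 times the floor, where the brighter signal of both Cat probe sets lies, 2.94% of probe sets were 2-fold or more apart. With a pseudocount of 16 in place of the floor, the log2 ratio of 98664_at was 0.98, below 2-fold.

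Catalase was the highest of 12 peroxisomal-list genes above the floor, 6 with ratios above 0 and 6 below, with a median of 0.01. That rank rests on probe set 98664_at, taken for its higher mean signal. By 99560_at, measured on both arrays, the Cat log2 ratio of 0.56 was below those of Pxmp2 and Pex7. Besides Cat, Pxmp2, a channel protein gene of the peroxisomal membrane, was 2-fold higher, at 115 in knockout cells and 55.1 in wild-type cells. Its log2 ratio was 1.06, and it was 0.95 under scaling to equal medians and 0.88 with the pseudocount of 16. Pex7, the import receptor for a class of peroxisomal enzymes, was at 140 in knockout cells and 73.2 in wild-type cells (0.93) and was named after its value was seen. The lowest was Abcd3, a fatty-acid transporter gene of the same membrane, at 355 in knockout cells and 485 in wild-type cells (−0.45). The list also holds Pmp22, a myelin gene placed there in error, at 364 in knockout cells and 352 in wild-type cells. Pmp22 is counted in the 12, in the 6 above 0 and among the list genes pooled below. Without it the middle ratio of the list is that of Pex6, −0.04.

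Gpx1, the selenium enzyme that reduces hydrogen peroxide with glutathione in the cytosol and mitochondria, was at 333 in knockout cells and 232 in wild-type cells, 1.43-fold higher (log2 ratio 0.52). As large a difference was found in 16.2% of all 6838 probe sets. The ratio ran from 0.40 to 0.54 over the processing alternatives. Of 5 glutathione peroxidase genes above the floor, 3 were above 0, with a median of 0.16. Gpx1 was the highest, and Gpx4, which reduces lipid peroxides in membranes, was the lowest, at 178 in knockout cells and 234 in wild-type cells (−0.40). These single-array values placed Gpx1 and Gpx4 on opposite sides of 0, and whether their ratios differ could not be tested.

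**Figure D2:**
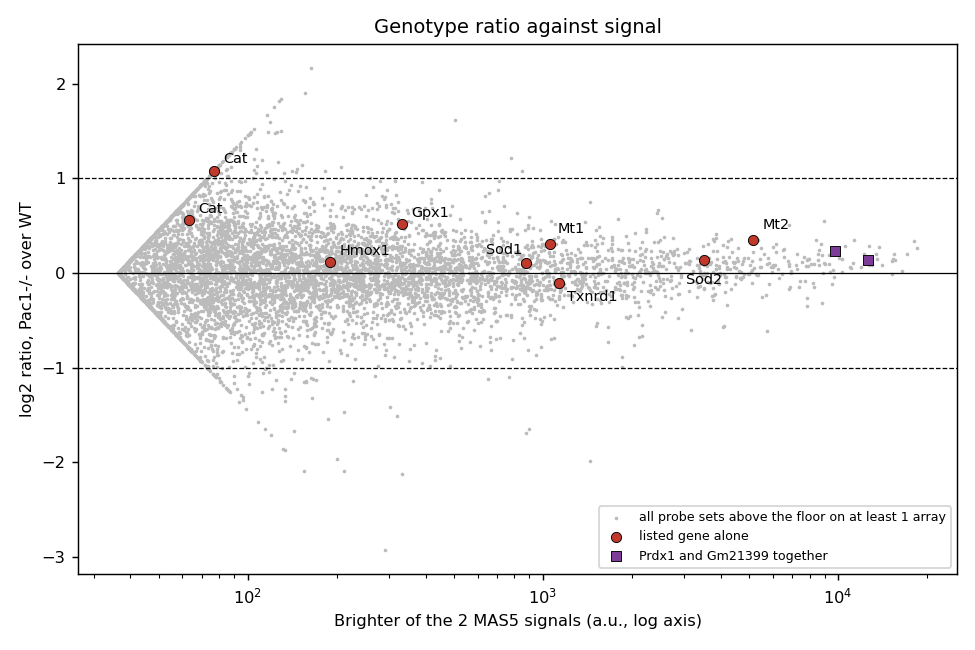
Log2 ratio of Pac1-/- over wild type against the brighter of the 2 signals (log axis, arbitrary units) for the 6838 probe sets above the floor on at least 1 array (grey), with single-gene probe sets of the antioxidant and metallothionein genes in red and the 2 probe sets annotated to Prdx1 and Gm21399 in purple. Signals under the floor are set to it, which draws the wedge at the left. The brighter members lie between −0.10 and 0.35, inside the grey cloud, and 1 Cat probe set lies above the dashed line at 2-fold.

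The 2 probe sets annotated to Prdx1, an abundant cytosolic peroxiredoxin, and to Gm21399 were bright and slightly higher on the knockout array. They were at 12637 in knockout cells and 11465 in wild-type cells for 97055_s_at (log2 ratio 0.14), and at 9730 in knockout cells and 8309 in wild-type cells for 97758_at (0.23). The gap between their ratios was less than the median gap between probe sets of 1 gene. Of the other peroxiredoxin genes and sulfiredoxin, 4 were measured and 3 had ratios above 0. Prdx3, the mitochondrial peroxiredoxin, was highest, at 397 in knockout cells and 246 in wild-type cells (0.69, 1.61-fold). Srxn1, the sulfiredoxin that repairs overoxidised peroxiredoxins and a strong NRF2 target, was lowest, at 138 in knockout cells and 174 in wild-type cells (−0.34).

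Hmox1, the inducible enzyme that breaks heme down to biliverdin, iron and carbon monoxide, was at 191 in knockout cells and 176 in wild-type cells (log2 ratio 0.12). As large a difference was found in 71.6% of all probe sets, and under scaling to equal medians the ratio was −0.0011. Of 7 heme and iron handling genes above the floor, 5 were above 0 and 0 were 1.5-fold apart in either direction, where 6.37% of named genes were 1.5-fold or more higher and 5.72% lower. The constitutive heme oxygenase gene Hmox2 was lowest (103 in knockout cells and 112 in wild-type cells, −0.11). The transferrin receptor gene Tfrc was highest (494 in knockout cells and 389 in wild-type cells, 0.34).

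Txnrd1, the cytosolic selenoenzyme that keeps thioredoxin reduced, had the lowest ratio among the members, at 1059 in knockout cells and 1137 in wild-type cells (log2 ratio −0.10). It was below 0 under all 8 processing alternatives to which it was put, between −0.22 and −0.10, though several of these could not change its value. As large a difference was found in 65.6% of the bright probe sets. The thioredoxin system had 4 of 5 genes below 0 and a median of −0.10. Of the 5, 0 were 1.5-fold apart, where 6.37% of named genes were 1.5-fold or more higher and 5.72% lower. Txnip, the inhibitor of thioredoxin, was lowest at 81.3 in knockout cells and 112 in wild-type cells (−0.46). Txn2, the mitochondrial thioredoxin, was highest at 517 in knockout cells and 503 in wild-type cells (0.04).

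Gclm, the regulatory subunit of the enzyme for the rate-limiting step of glutathione synthesis, did not reach the floor in either genotype, at 30.5 in knockout cells and 12.2 in wild-type cells, so no fold is given. The catalytic subunit gene Gclc was also dim, at 82.9 in knockout cells and 78.6 in wild-type cells (log2 ratio 0.08). Of 7 genes of glutathione synthesis and recycling above the floor, 3 were above 0 and the median was −0.0029. The highest was the glutathione synthetase gene Gss, at 200 in knockout cells and 170 in wild-type cells (0.24). The lowest was Slc7a11, the cystine transporter that feeds glutathione synthesis, at 47.4 in knockout cells and 71.8 in wild-type cells (−0.60, 1.51-fold lower).

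The metallothionein transcripts had ratios close to each other. Mt1 was at 1058 in knockout cells and 857 in wild-type cells (log2 ratio 0.30), and Mt2 was at 5166 in knockout cells and 4066 in wild-type cells (0.35). As large a difference was found in 20.7% of the bright probe sets for Mt1 and in 16.5% for Mt2. Both remained above 0 under the processing alternatives, several of which could not change them, from 0.19 to 0.33 for Mt1 and from 0.23 to 0.35 for Mt2. The array's own control probe sets were apart by a similar or larger amount: the 3′ actin control was at 12988 in knockout cells and 10543 in wild-type cells (0.30), and the 3′ Gapdh control at 5329 in knockout cells and 4424 in wild-type cells (0.27). The 5′ controls were further apart, with log2 ratios of 0.37 for actin and 0.43 for Gapdh. Among the 187 probe sets that reached 100 times the floor, as Mt2 did, 69.0% had ratios above 0 and the median was 0.08. What the actin, Gapdh and metallothionein ratios share was not tested.

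Mt2 and Mt1 lie next to each other on chromosome 8 with 0 annotated genes between them, and their starts are 6471 bases apart in RefSeq (GRCm38.p6). Since the pair had like ratios, the sequence before each start is shown, 5′ to 3′ on the plus strand, with matches to the core of the metal response element, TGCNCNC on either strand, in capitals. The Mt2 window is chr8:94172368-94172617. For Mt1 only the last 30 bases before the start are shown, chr8:94179059-94179088, because the gene record begins further upstream.
Mt2: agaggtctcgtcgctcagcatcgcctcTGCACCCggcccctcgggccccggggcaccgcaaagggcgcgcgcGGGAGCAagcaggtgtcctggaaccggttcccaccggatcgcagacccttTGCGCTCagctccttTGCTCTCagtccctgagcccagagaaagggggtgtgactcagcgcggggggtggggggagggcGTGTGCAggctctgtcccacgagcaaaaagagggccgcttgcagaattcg
Mt1: cccgctgTGCACACtggcgctccagggagc

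The 250 bases before the Mt2 start held 5 matches and those before the Mt1 start held 1, the one shown. The Mt1 gene record begins inside its 250 bases, so the window used may not be the Mt1 promoter. The Mt1 counts given here therefore cannot be set against those of Mt2. Among the other members, Gclm had 2 matches, Txnrd1 had 1 before each of 2 of its 3 starts, and Sod1, Sod2, Cat, Gpx1 and Prdx1 had 0. Of 32851 RefSeq windows of this length, 44.4% held at least 1 match and 0.344% held 5 or more. The Mt2 window also held the antioxidant response element core, TGACNNNGC, as TGACTCAGC at 79 to 71 bases before the start, overlapping none of the capitals. That core was present in 10.2% of all windows. Mt1 had 0 matches to it. Among the other members it occurred 1 time before the starts of Sod1, Prdx1 and Gclm and before 1 of the 3 starts of Txnrd1, and 0 times before those of Sod2, Cat and Gpx1. Windows were set by the starts in the table, and a match is a description of the letters, not a site in use.

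Other genes of metal handling had ratios on both sides of 0. Mt3, best known from brain, was at 335 in knockout cells and 362 in wild-type cells (log2 ratio −0.11), Mt4 did not reach the floor in either genotype, and Mtf1, the metal-sensing activator, was at 64.2 in knockout cells and 63.1 in wild-type cells (0.02). Slc30a1, a zinc exporter gene and MTF1 target, was the highest of the list at 116 in knockout cells and 81.4 in wild-type cells (0.51). Slc30a4, another zinc transporter gene, was the lowest at 51.3 in knockout cells and 200 in wild-type cells (−1.96), or −0.62 when the floor was raised to the 75th percentile, and its second probe set stayed under the floor in both genotypes. In all, 6 of 8 genes of the list above the floor had ratios above 0, with a median of 0.08.

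**Figure D3:**
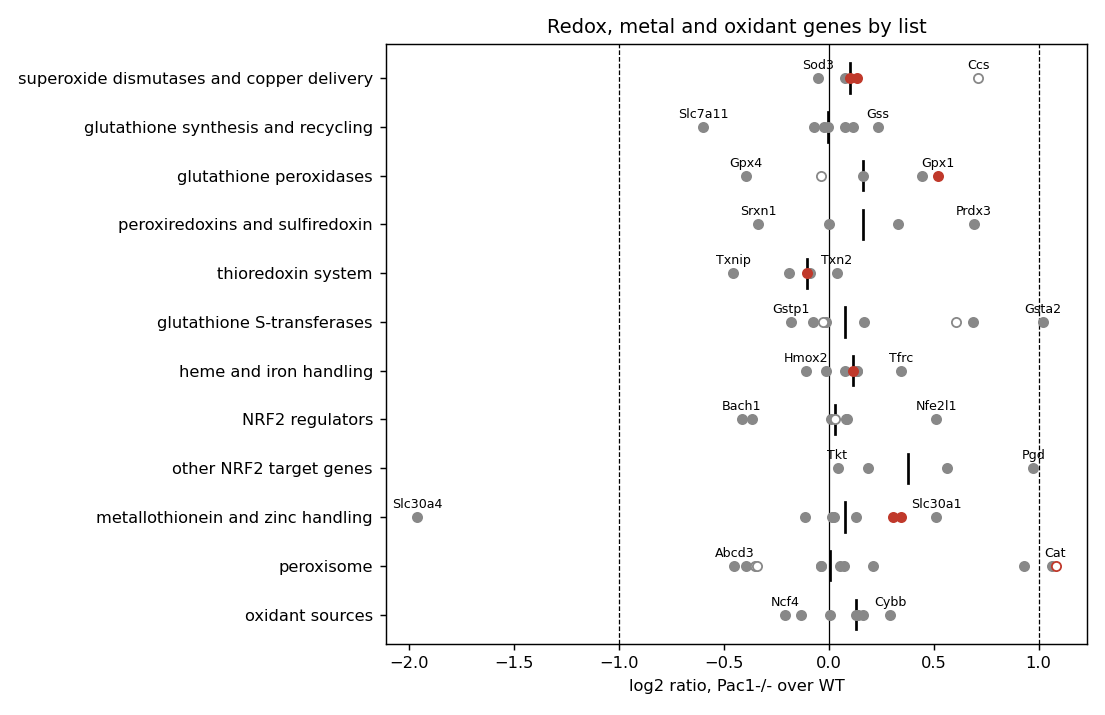
Log2 ratios of Pac1-/- over wild type for genes of 12 redox, metal and oxidant lists, 1 point per gene above the floor, with the 8 member genes above it in red, hollow points where 1 signal was below the floor, and a black bar at each list's median. Dashed lines mark 2-fold. The highest and lowest gene of each list is named, and most points lie between −0.5 and 0.5.

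NRF2 regulators had ratios on both sides of 0. Nfe2l2, which encodes NRF2 itself, was at 859 in knockout cells and 853 in wild-type cells (log2 ratio 0.01), and Keap1, its inhibitor, was above the floor on the knockout array alone, at 37.2 against 28.1 in the wild type. The list had 5 of 7 genes above 0 and a median of 0.03, between Bach1, a repressor of Hmox1 (377 in knockout cells and 503 in wild-type cells, −0.42), and Nfe2l1, a related factor gene (132 in knockout cells and 92.3 in wild-type cells, 0.51). Of those 5, only Nfe2l1 exceeded the 0.12 by which scaling to equal medians lowers ratios measured on both arrays. Of 9 further NRF2 target genes on the array only 4 were above the floor, and Nqo1, a classical target, was below it on both arrays. All 4 had ratios above 0, Tkt only under scalings other than that to equal medians. The highest was Pgd, a pentose phosphate enzyme gene that supplies NADPH, at 712 in knockout cells and 362 in wild-type cells (0.98, 1.97-fold). After quantile normalization its ratio was 1.01, past 2-fold. Its dimmer probe set read 71.9 in knockout cells and 74.4 in wild-type cells. The lowest was the transketolase gene Tkt, at 812 in knockout cells and 789 in wild-type cells (0.04).

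Glutathione S-transferase genes, which conjugate glutathione to reactive compounds, had 4 of 8 ratios above 0 and a median of 0.08. Gsta2 was 2-fold higher, at 85.8 in knockout cells and 42.3 in wild-type cells (log2 ratio 1.02), but below 2-fold under scaling to equal medians (0.90), quantile normalization (0.96), loess (0.97) and the pseudocount of 16 (0.80). Gstp1 was lowest, at 270 in knockout cells and 306 in wild-type cells (−0.18). Among sources of oxidants, 5 of 7 genes were above 0 with a median of 0.13. Cybb, the catalytic subunit gene of the phagocyte NADPH oxidase, was highest at 1409 in knockout cells and 1149 in wild-type cells (0.29), and the regulatory subunit gene Ncf4 was lowest at 429 in knockout cells and 496 in wild-type cells (−0.21).

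Over the 71 genes of these lists that were above the floor and are not members, 42 had ratios above 0. That is 59.15%, against 52.2% of all 5119 named genes above the floor. The median log2 ratio was 0.04 against 0.02 for all named genes. It was −0.078 under scaling to equal medians, where that of all probe sets was −0.09, so the count above 0 depends on the scaling. There were 2 that were 2-fold or more higher (Gsta2 and Pxmp2) and 1 that was 2-fold lower (Slc30a4), 2.82% and 1.41% of the 71, where 1.23% and 1.07% of all named genes were. At 1.5-fold, 8 were higher and 2 lower, 11.3% and 2.82%, against 6.37% and 5.72% of all named genes. Ccs and Gstm2, among the 8, passed the floor on the knockout array alone, so they could only come out higher there. The counts over all named genes include such genes too. Under scaling to equal medians or loess the Ccs ratio was below 0 (−0.052 and −0.0096). Of the 8, the glutathione S-transferase genes Gsto1 (309 in knockout cells and 192 in wild-type cells) and Gstm2 (at least 1.52-fold higher) were also named after their values were seen. The members measured above the floor on both arrays, 8 probe sets, had 7 ratios above 0 and a median of 0.22, where 52.5% of all probe sets were above 0 and their median was 0.02. Under scaling to equal medians, 6 of the 9 probe sets that cleared the floor on either array were above 0, since Sod1 and Hmox1 changed side.

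**Figure D4:**
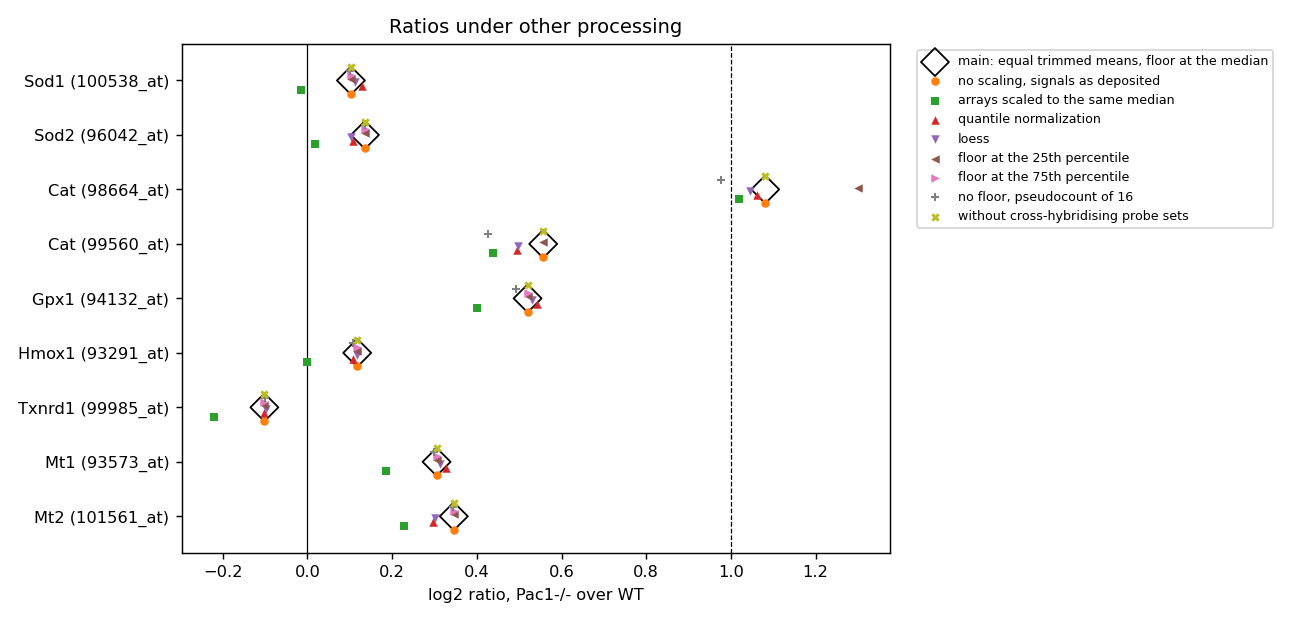
Log2 ratio of Pac1-/- over wild type for the 9 single-gene probe sets above the floor, in the main processing (open diamonds) and under 8 alternatives (coloured marks, offset vertically for legibility). Scaling to the same median moves each ratio to the left, and takes Sod1 and Hmox1 to just below 0. The ratio of Cat 98664_at lies between 0.98 and 1.30.

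Macrophage markers had 7 of 9 ratios above 0 and a median log2 ratio of 0.24. They ran from Msr1, a scavenger receptor gene at 1366 in knockout cells and 2171 in wild-type cells (−0.67), to the Fc receptor gene Fcgr1 (0.36), and the mannose receptor gene Mrc1 was also below 0 (−0.29). Their signals summed to 26173 in knockout cells and 23231 in wild-type cells. Sums of this kind, here and below, are led by the brightest probe sets, such as Cd14 here and Hdc in a list below. They are no measure of a cell type's share. The part of the macrophage markers in the members' ratios was not tested. Red cells are rich in catalase, peroxiredoxins and SOD1. Of 4 erythroid markers on the array 2 were above the floor in knockout cells and 2 in wild-type cells, with summed signals of 150 in knockout cells and 162 in wild-type cells. The hemoglobin gene Hba-a1 was at 12.8 in knockout cells and 78.0 in wild-type cells, the erythroid transcription factor gene Klf1 at 85.8 in knockout cells and 60.4 in wild-type cells, and Alas2, an enzyme gene of erythroid heme synthesis, at 37.3 in knockout cells and 4.1 in wild-type cells. Slc4a1 was below the floor on both arrays. The part of these markers in the Cat and other ratios was not tested.

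Markers of other cells that a lavage can hold were above the floor in part. The floor is the median of all signals, and 5119 of all 8220 named genes were above it on at least 1 array. A marker above it, in these lists or those before, is therefore not by itself detection of a cell type. Of 9 neutrophil markers, 5 were above it in knockout cells and 4 in wild-type cells. They summed to 894 in knockout cells and 973 in wild-type cells, with Ltf, Mpo, Ngp and Cxcr2 below the floor on both arrays. Single log2 ratios ran from −0.37 (Csf3r) to 0.47 (Camp). The other Csf3r probe sets gave −0.23 and 0.28, on opposite sides of 0. Of 9 eosinophil, mast cell and basophil markers, 5 were above it in knockout cells and 3 in wild-type cells. They summed to 1157 in knockout cells and 1110 in wild-type cells, with Epx, Ccr3, Cpa3 and Ms4a2 below it. Within that list the eosinophil granule gene Prg2 was at 100.1 in knockout cells and below the floor in wild-type cells, at least 2.75-fold higher. Its other probe set stayed under the floor, at 4.5 in knockout cells and 4.6 in wild-type cells. The mast cell tryptase gene Tpsb2 was 1.66-fold higher, and Hdc was 1.36-fold lower. Of 5 B cell markers, 5 were above it in knockout cells and 4 in wild-type cells, with sums of 472 in knockout cells and 433 in wild-type cells. Cd79a was at 100.2 in knockout cells and 20.7 in wild-type cells, at least 2.75-fold higher, and Ms4a1 was 1.67-fold lower. The 6 T and NK cell markers summed to 95.6 in knockout cells and 128 in wild-type cells, with Cd4 the only one above the floor on either array, at 32.8 in knockout cells and 74.5 in wild-type cells, at least 2.05-fold lower. Of 10 mesothelial and stromal markers, 5 were above it in each genotype. They summed to 848 in knockout cells and 1064 in wild-type cells, with Krt8, Krt18, Krt19, Msln and Wt1 below it. The smooth-muscle actin gene Acta2 was at 52.2 in knockout cells and 133 in wild-type cells, 2.55-fold lower. The part of these marker lists in the members' ratios was not tested.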

How the data were processed

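Total RNA was amplified with an oligo(dT)-T7 primer and biotin-labelled as cRNA, per the labels' protocols. Such priming favours the 3′ ends of transcripts. Each deposited value is a linear-scale intensity of 1 probe set on 1 array, computed by the authors with MAS5 per the submitters' processing notes, which give no version or settings. Their 2% trimmed means were equal (150 on both arrays).

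Arrays were scaled to the same 2% trimmed mean (factors of 1), signals were raised to a floor at the median of all signals (36.4), and log2 ratios (knockout over wild type) were computed. A fold with 1 signal below the floor is written as "at least". Of 12654 probe sets, 10298 had 1 gene symbol in the platform annotation, 363 had several and 1993 were not in it, and 66 controls were left out. Gene-level values (8220 genes, 5119 above the floor on at least 1 array) used the probe set of highest mean signal. Bright means a signal of at least 364, 10 times the floor. No test between genotypes was made. Members and lists were chosen with earlier results of these data known. The text names all members, and from each pathway list the highest and lowest gene and any gene 2-fold apart. Gclc, Nfe2l2, Keap1, Nqo1, Mt3, Mt4, Mtf1 and Pmp22 were named outside this rule, as were Pex7, Gsto1 and Gstm2. Marker lists are given by counts and sums, and their single genes were named after their values were seen. Alternatives covered scaling, the floor, cross-hybridising probe sets and several probe sets per gene. The scripts (Python 3.11.15, pandas 2.3.3, statsmodels 0.14.6) were tested on simulated data. Promoter sequences are from RefSeq (GRCm38.p6), matched by symbol for 9 of the 10 genes. Array number limits precision.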

Additional observations from a re-analysis of the deposited data

How the results depend on the processing

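With 1 array per genotype, no value here has a replicate check, and dim probe sets such as those of Cat and Gclm limit what can be read. No paired analysis was possible because each genotype has 1 array. Of the member ratios, 69 of 70 values under the alternatives stayed on the same side of 2-fold and within 1.5-fold of the main value, and the exception was Cat 98664_at with a pseudocount of 16 (log2 ratio 0.98). Many of these values could not move. The scaling factors were 1, and no single-gene member probe set was of the cross-hybridising kind. A higher or lower floor changes nothing for a probe set above it on both arrays. The count of 69 is therefore no measure of stability. The count of member probe sets 2-fold apart, 1 in the main processing, was 2 when the floor was the 25th percentile of signals, where the dim Gclm was counted too, and 0 when it was the 75th percentile, which left no Cat value, or with the pseudocount. The members' median log2 ratio, 0.30 over 9 probe sets, was 0.19 under scaling to equal medians and 0.14 with the floor at the 75th percentile. The pathway genes' median was −0.078 under scaling to equal medians. The count of pathway genes 2-fold apart, 3 in the main processing, was 1 under scaling to equal medians, 8 and 0 with the floor at the 25th and 75th percentiles and 1 with the pseudocount. For all probe sets the count of 157 became 1322 and 13 with those floors and 330 with the pseudocount, and the split of 81 higher and 76 lower became 55 and 116 under scaling to equal medians. Quantile normalization, loess and leaving out cross-hybridising probe sets kept each of these counts within 1.5 times the main count and moved each of these medians by under 0.1.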
